A study of Mus musculus with 24 samples.

Results

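The genes described here lie on both sides of the loci that were targeted in 3 mouse lines. They are the genes that reach within 5 Mb of Dmrt2 on chromosome 19, or within 5 Mb of the block from Hmx3 to Hmx2 on chromosome 7 (mouse build mm39), and were chosen by position and by a mean of at least 1 CPM (a gene's reads scaled to the library's total) over 24 kidney libraries. Dmrt2, Hmx2 and Hmx3 themselves were left out. Of 54393 annotated genes 168 met the rule, 49 on chromosome 19 and 119 on chromosome 7, and all 168 were tested in every comparison. RNA of whole mouse kidneys at embryonic day 18.5 was sequenced in bulk after poly(A) selection. The first line compared 3 Dmrt2 knockouts with 3 controls, the second 6 knockouts of Hmx3 and Hmx2 with 6 controls, and the third 3 libraries labelled triple knockout (all 3 genes) with 3 controls. The controls were littermates, and their genotype is given only as control. Neither the alleles nor the length of DNA each removes is described. Nothing states that the libraries of a group came from different embryos, and the p-values then measure only the spread of these libraries, some of which may be technical.

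Dmrt2 encodes a DM-domain transcription factor, and Hmx2 and Hmx3 encode homeobox transcription factors that lie side by side. The study asked how these factors act on subtypes of the intercalated cell, which moves acid and base across the collecting duct of the kidney. Genes that lie close together on a chromosome can share regulatory DNA and are inherited together, and so the neighbours of a targeted gene are often read apart from the rest of the genome. Their products need have nothing in common. Here they range from a mitotic checkpoint protein (Bub3) and a mitochondrial glycine enzyme (Gldc) to growth factor receptors and chromatin remodellers.

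In each line 1 of the 168 genes passed the test at an adjusted p under 0.05, and their promoters are shown because the results turn on them. Tmem252 encodes a transmembrane protein, Gldc the glycine decarboxylase of the glycine cleavage system, and Bub3 a WD-repeat protein of the spindle assembly checkpoint. The sequences are from RefSeq on build GRCm38.p6 (another build than that of the counts), run from 250 bases before to 50 bases after a start site, and are written 5′ to 3′ on the gene's strand. Capitals mark matches on either strand to 3 sets of letters, ACAATGT (a DM-domain core), CAAGTG and CAATTAA (both known to be bound by homeobox proteins), which do not overlap each other here.
Tmem252 (chr19:24673758-24674057, plus strand): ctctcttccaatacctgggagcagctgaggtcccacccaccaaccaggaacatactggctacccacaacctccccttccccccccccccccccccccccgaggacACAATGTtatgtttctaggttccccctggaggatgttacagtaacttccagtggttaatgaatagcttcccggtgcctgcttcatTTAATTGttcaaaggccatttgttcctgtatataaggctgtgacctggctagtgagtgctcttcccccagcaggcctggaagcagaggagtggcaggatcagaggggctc
Gldc (chr19:30175392-30175691, minus strand): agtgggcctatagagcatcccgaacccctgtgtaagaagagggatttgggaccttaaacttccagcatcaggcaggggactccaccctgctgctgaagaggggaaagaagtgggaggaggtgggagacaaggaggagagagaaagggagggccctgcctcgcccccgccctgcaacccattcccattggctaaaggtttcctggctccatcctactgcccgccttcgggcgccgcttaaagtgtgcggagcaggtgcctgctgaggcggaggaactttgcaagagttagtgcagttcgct
Bub3, first of 2 start sites (chr7:131560120-131560419, plus strand): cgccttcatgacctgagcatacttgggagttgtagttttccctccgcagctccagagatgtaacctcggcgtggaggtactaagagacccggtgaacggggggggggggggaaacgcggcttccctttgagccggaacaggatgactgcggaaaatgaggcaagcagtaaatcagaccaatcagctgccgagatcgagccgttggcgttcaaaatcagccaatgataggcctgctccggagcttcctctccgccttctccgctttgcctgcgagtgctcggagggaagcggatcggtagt
In the Tmem252 window ACAATGT begins at position -145 from the start site, and TTAATTG, the reverse complement of CAATTAA, at position -60. The Gldc window, the Bub3 window shown and that of the second Bub3 start site (chr7:131560244-131560543) hold none of the 3. Of 32851 RefSeq promoter windows of this length 2.96% hold ACAATGT, 13.6% CAAGTG and 2.58% CAATTAA. RefSeq windows were found for 136 of the 168 flanking genes, 170 windows in all, of which 1 (Tmem252) holds ACAATGT, 27 hold CAAGTG and 4 hold CAATTAA. A match of letters is a description of the window and not a binding site.

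The libraries held 52286824 to 127339273 counted reads each, so that 3 reads were worth 0.0236 to 0.0574 CPM. The targeted genes checked the labels in part. Dmrt2 stood at 1.57 to 2.26 CPM in Dmrt2 knockouts and 12.4 to 14.8 CPM in their controls. Hmx2 had 8 reads in the 6 Hmx3 Hmx2 knockouts and 807 in their controls, and 2 against 872 in the triple comparison. Hmx3 had 6 against 34 reads and 0 against 30 reads in the same comparisons, so few in controls that its loss can hardly be checked. In the libraries labelled triple knockout Dmrt2 was higher than in controls (18.6 ± 0.984 against 11.4 ± 0.779 CPM, SD, n = 3 and 3, edgeR adjusted p = 0.00424). The count gives no support for that part of the label, and every direction drawn from these libraries rests on their label. Dmrt2 was also higher in the Hmx3 Hmx2 knockouts than in their controls. It stood at 12.09 to 12.97 against 9.33 to 9.93 CPM in replicates 1 to 3. For replicates 4 to 6 it was 9.38 to 10.7 against 7.97 to 9.18 CPM. With the alleles undescribed, a higher count cannot decide whether Dmrt2 is disrupted in the libraries labelled triple knockout. Counts per gene carry no exon detail. Expression from the Y chromosome was found in 1 of 3 Dmrt2 knockouts and 3 of 3 controls, in 2 of 6 and 4 of 6 in the Hmx3 Hmx2 line, and in 2 of 3 and 2 of 3 in the triple line. All 12 kidney markers looked up, among them Nphs1, Lrp2, Slc34a1, Umod and Aqp2, were expressed in all 24 libraries. Of the 5 adrenal markers, Cyp11b1 and Cyp11b2 had medians of 0.00924 and 0 CPM. Cyp11a1, Nr5a1 and Star had reads in all 24 libraries, with medians of 0.390, 0.462 and 5.08 CPM.

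The windows differed in gene density. Around Dmrt2, 155 genes are annotated, of which 26 had no read and 49 reached 1 CPM, 24 at lower and 25 at higher coordinates. Around Hmx3 and Hmx2, 300 genes are annotated, of which 42 had no read and 119 reached 1 CPM. Of the 119, 96 lay at lower coordinates, most of them in a dense stretch more than 2.5 Mb away. Mean CPM over the 24 libraries chose the genes and is given as a description only. On chromosome 19 the values nearest the limit were 1.16 (A930007I19Rik), 1.35 (1700018L02Rik) and 1.36 CPM (Gm9493) inside, and 0.910 (Cd274), 0.850 (Nsa2-ps1) and 0.803 (4931403E22Rik) outside. On chromosome 7 they were 1.10 (Plpp4), 1.22 (Insyn2a) and 1.34 (Tbx6) inside, and 0.851 (Gm6939), 0.847 (Gm9967) and 0.836 (2510046G10Rik) outside. By distance, Aldh1a7 (4.94 Mb) and Prkg1 (4.89 Mb) lay inside and Aldh1a1 (5.03 Mb) and Cstf2t (5.40 Mb) outside on chromosome 19, and Eif3c (4.98 Mb) and Mki67 (4.13 Mb) inside and Atxn2l (5.04 Mb) and Gm9347 (5.25 Mb) outside on chromosome 7. Per exon length, the highest levels in controls were those of Fam122a (33.6 RPKM), the adenylate kinase gene Ak3 (30.5) and Kank1 (19.9) on chromosome 19, and of the glycolytic gene Aldoa (233), the zinc finger gene Maz (117) and the translation initiation factor gene Eif3c (108) on chromosome 7. On the same scale Tmem252 stood at 16.5, Bub3 at 14.3 and Gldc at 4.55 RPKM.

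Among the 49 genes around Dmrt2, 1 fell in the Dmrt2 knockouts. Tmem252 (24651372 to 24659597 on mm39), 990.2 kb from Dmrt2 at lower coordinates, stood at 43.0, 37.9 and 41.2 CPM (scaled by TMM within the line, as all levels below) in the Dmrt2 knockouts. In the 3 controls it stood at 83.8, 93.6 and 113 CPM. Every knockout lay below every control, and the knockouts lay close together. The fall was 2.38-fold, from 96.8 ± 14.9 to 40.7 ± 2.54 CPM (SD, n = 3 and 3; log2 fold change -1.25 ± 0.10 SE, edgeR quasi-likelihood adjusted p = 0.00113). It was the only one of the 49 genes called, where 0.444% of the 19807 genes tested in this comparison were called and 0.257% were called lower. In bulk RNA, fewer cells of a type and less RNA per cell cannot be told apart.

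2 measures moved with the fall of Tmem252. The single knockout with Y-linked expression, replicate 1, had the highest of the 3 knockout values (43.0 CPM), below all 3 controls, which all had it. With Y-linked expression as a covariate the log2 fold change was -1.17 and the call ended (adjusted p = 0.163). Calls over all 19807 genes tested were then 13 in place of 88. The 5 liver markers summed to 35.3 to 42.8 CPM in knockouts and 61.6 to 79.8 CPM in controls. Most of that sum was Ttr, the transthyretin gene, at 29.8 against 62.1 CPM (adjusted p = 0.0504), and 0 of the 5 were called. Alb, the albumin gene, stood at 1.30 against 1.45 CPM. The part of these measures in the result was not tested beyond these values.

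**Figure D1:**
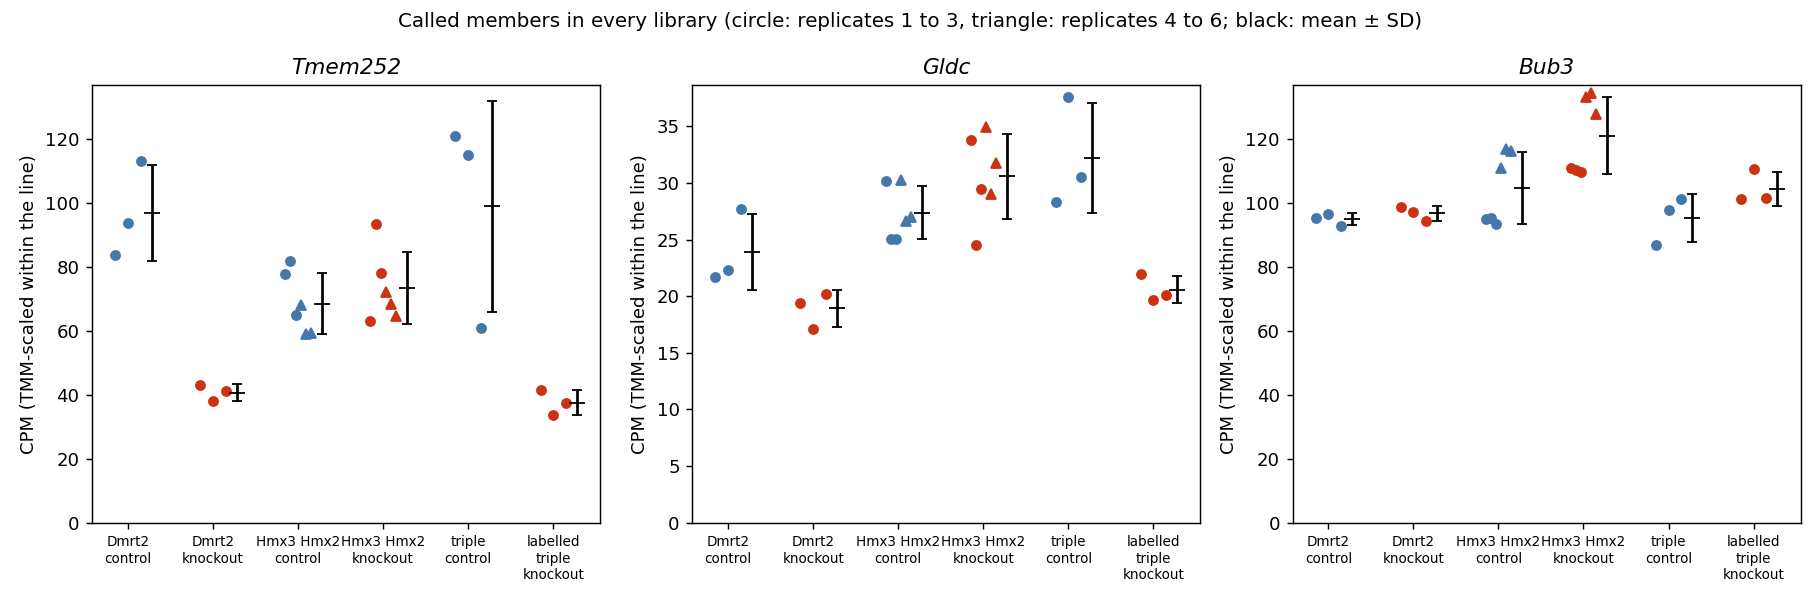
TMM-scaled CPM of Tmem252, Gldc and Bub3 in each of the 24 libraries by group (circles for replicates 1 to 3, triangles for 4 to 6, black for mean ± SD, axes from 0). Tmem252 lies at 33.6 to 43.0 CPM in the 6 libraries labelled as lacking Dmrt2 and at 59.0 CPM or more in the other libraries shown, and Bub3 separates knockouts from controls within each symbol of the Hmx3 Hmx2 line.

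Of the 6 genes of at least 1 CPM within 1 Mb of Dmrt2 the other 5 were not called. The nearest of the 49, Kank1, an adaptor that organises actin and adhesion, lies 238 kb away and stood at 110.5, 109 and 110.0 CPM in knockouts and 99.6, 95.9 and 106.99 CPM in controls. The groups did not overlap, but the difference was small (0.12 ± 0.06 SE, edgeR adjusted p = 0.388). Dock8, which encodes an activator of the GTPase Cdc42 in leukocytes, lies 470.0 kb away with overlapping groups (0.07 ± 0.09 SE, adjusted p = 0.808). Pgm5, a phosphoglucomutase relative of adhesion sites and the next gene to Tmem252, stood at 20.8 ± 1.15 against 24.03 ± 3.64 CPM (-0.21 ± 0.10 SE, adjusted p = 0.427). On the far side the first of the 49 genes was Smarca2, an ATPase of the BAF chromatin remodelling complex, 926 kb away (0.07 ± 0.05 SE, adjusted p = 0.658). The closest gene of all, 2610016A17Rik, lies 158 bases from Dmrt2 on the opposite strand and was too low for the rule. It stood at 0.146, 0.131 and 0.0157 CPM in Dmrt2 knockouts and 0.721, 0.799 and 0.881 CPM in controls, and was called lower (adjusted p = 0.0338). In the triple comparison it stood at 1.09 ± 0.223 against 0.667 ± 0.153 CPM (adjusted p = 0.206), the same side as Dmrt2 itself in both. Counting used no strand, so its reads and those of Dmrt2 beyond its annotated ends cannot be told apart.

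At an unadjusted p under 0.05, 13 of the 49 genes stood out in the Dmrt2 comparison, a share of 26.5% beside 12.3% of all genes tested. Of these 10 were higher and 3 lower (Tmem252, Gldc and Apba1), beside 6.99% and 5.34% of all genes tested. Among all tested genes of at least 1 CPM the share was 14.7%, and among the 472 other genes of chromosome 19 at that level 14.8%. Knockouts lay above all controls in 9 of the 49 and below them in 3, beside 9.61% and 8.23% of all genes tested. The median log2 fold change of the 49 genes was 0.05, with 33 above 0 (67.3%), against -0.02 and 43.4% for the rest of chromosome 19 and 0.00 and 49.4% for all genes tested. In the Hmx3 Hmx2 line, in which chromosome 19 was not targeted, 34 of the 49 lay above 0 (69.4%), with a median of 0.04. There 41.6% of the rest of chromosome 19 and 47.0% of all genes tested did. In the triple comparison 21 of the 49 lay above 0 (42.9%, median -0.03), beside 45.3% and 50.2%. The changes of single genes in the Dmrt2 comparison were small. Ric1, a subunit of the activator of the GTPase Rab6, stood at 68.3, 69.96 and 69.8 CPM in knockouts and 61.0, 57.1 and 62.3 CPM in controls (0.21 ± 0.05 SE, adjusted p = 0.133). Smc5, of the SMC5/6 DNA repair complex, stood at 61.8, 58.3 and 51.7 against 51.0, 46.3 and 45.5 CPM (0.26 ± 0.07 SE, adjusted p = 0.160). Vldlr, a lipoprotein and reelin receptor gene, stood at 157, 158 and 151 against 142, 119.5 and 137 CPM (0.22 ± 0.07 SE, adjusted p = 0.193). In these 3 genes all knockouts lay above all controls, as in Ptar1 (0.19 ± 0.06 SE), which encodes a prenyltransferase subunit repeat protein. Rfx3, a regulator of ciliary genes, and Glis3, a zinc finger regulator of kidney and pancreas, had overlapping groups (0.24 ± 0.10 SE and 0.19 ± 0.07 SE, adjusted p = 0.357 and 0.282).

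**Figure D2:**
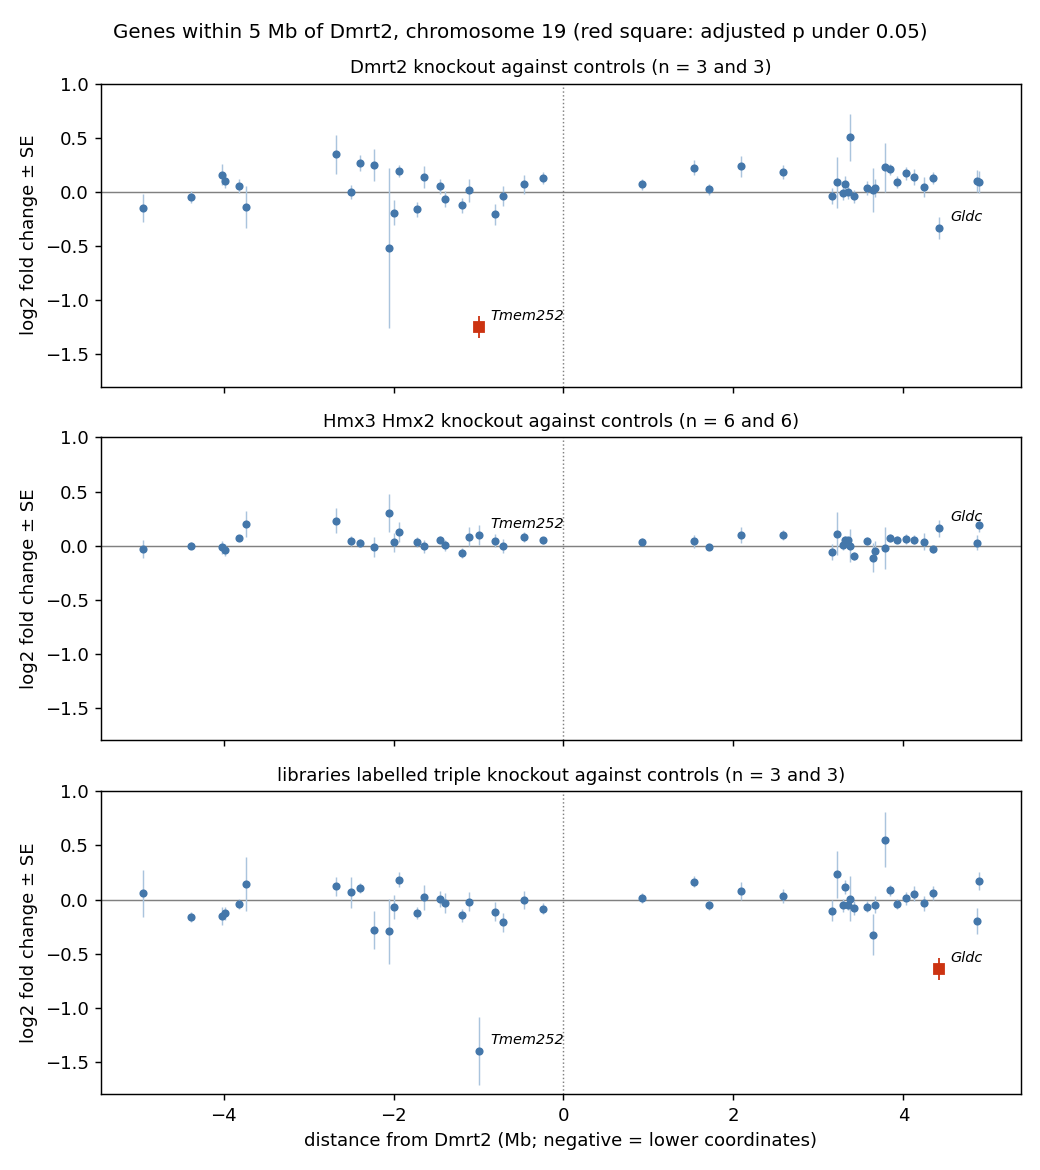
Log2 fold change ± SE of the 49 genes within 5 Mb of Dmrt2 against their distance from it (negative for lower coordinates), one panel for each line, red squares for an adjusted p under 0.05. Most genes lie near 0 at all distances, Tmem252 stands at -1.25 and -1.40 in the Dmrt2 and triple panels and at 0.10 in the Hmx3 Hmx2 panel, and Gldc, 4.42 Mb away, is the called gene of the triple panel.

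The triple comparison showed the same side for Tmem252 and called Gldc. In the libraries labelled triple knockout Tmem252 stood at 41.6, 33.6 and 37.3 CPM, and in their controls at 121, 114.97 and 60.9 CPM. The groups did not overlap, but control replicate 3 lay far below the other 2 controls. The log2 fold change was -1.40 ± 0.31 SE (edgeR adjusted p = 0.157), so Tmem252 was not called here. Without control replicate 3 it was (-1.66, adjusted p = 7.6e-06), as with DESeq2 (adjusted p = 0.000187) and in a single fit of the 24 libraries (0.00153, 2.59% of genes called). Control replicate 1, without Y-linked expression, had the highest value (121 CPM), and the controls with it had 114.97 and 60.9 CPM. The summed liver markers of this line overlapped (34.3 to 43.7 CPM in knockouts and 28.8 to 51.1 CPM in controls).

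Gldc (30075847 to 30152829), at the far end of the window, stood at 21.9, 19.7 and 20.1 CPM in the libraries labelled triple knockout and 28.3, 37.6 and 30.5 CPM in controls. All 3 lay below all controls, from 32.2 ± 4.85 to 20.6 ± 1.20 CPM (SD, n = 3 and 3; 1.56-fold lower, log2 fold change -0.65 ± 0.10 SE, edgeR adjusted p = 0.0231). It was the only one of the 49 genes called in this comparison, in which 1.03% of 21537 genes were called and 0.446% called lower. The call ended without knockout replicate 2 (-0.62, adjusted p = 0.0755) and without knockout replicate 3 (-0.64, 0.135). In the Dmrt2 knockouts Gldc stood at 19.4, 17.1 and 20.2 CPM against 21.7, 22.3 and 27.7 CPM, again without overlap, at a smaller size (-0.34 ± 0.10 SE, adjusted p = 0.204). The other 5 genes of glycine cleavage and serine hydroxymethylation were not called in any line. In the triple comparison they lay between -0.14 (Dld, adjusted p = 0.162) and -0.02 (Shmt2), and the median with Gldc was -0.10 (0.00 over all genes tested). Gldc is also a liver gene. Of the 5 liver markers 1 was called in the triple comparison, Serpina1a, which was higher (9.12 against 5.61 CPM, 0.70, adjusted p = 0.042), while Alb stood at 0.943 against 3.94 CPM (-2.07, adjusted p = 0.211) and Ahsg at 0.268 against 1.505 CPM (adjusted p = 0.107). Their part in the fall of Gldc was not tested.

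In the triple comparison 9 of the 49 genes, Gldc and Tmem252 among them, had an unadjusted p under 0.05, a share of 18.4% beside 17.9% of all genes tested. Of these 3 were higher and 6 lower, beside 9.29% and 8.63% of all genes tested. At a mean of at least 1 CPM the share under 0.05 was larger, 20.8% of all tested genes and 22.2% of the rest of chromosome 19. Knockouts lay above all controls in 4 of the 49 and below them in 12, beside 11.9% and 12.4% of all genes tested. Among all 15034 tested genes of at least 1 CPM they lay above in 1662 and below in 2374. Kank1 stood at 132, 125 and 122.2 against 139.5, 136 and 127 CPM with overlapping groups (-0.09 ± 0.05 SE, adjusted p = 0.420), the opposite sign to the Dmrt2 comparison. Vldlr stood at 216, 199.9 and 197 against 184, 182 and 181 CPM (0.16 ± 0.05 SE, adjusted p = 0.151), on the same side as in the Dmrt2 comparison, as did Smc5 (0.10 ± 0.05 SE, adjusted p = 0.273) and Ptar1 (0.18 ± 0.07 SE, adjusted p = 0.205). Zfand5, a zinc finger gene 4.39 Mb from Dmrt2, stood lower without overlap (-0.16 ± 0.05 SE, adjusted p = 0.114).

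In the Hmx3 Hmx2 line, in which chromosome 19 was not targeted, 0 of the 49 genes were called (edgeR, beside 0.021% of 19050 genes, and also 0 by DESeq2, beside 0.0147%), and 3 had an unadjusted p under 0.05, beside 4.93% of all genes tested. Groups of 6 that did not overlap at all were found for 0 of the 168 flanking genes and 0.0787% of all genes. Tmem252 ranged from 63.1 to 93.5 CPM, with a median of 70.3, in knockouts and from 59.0 to 81.7 CPM, with a median of 66.5, in controls, so that the groups overlapped (0.10 ± 0.09 SE, adjusted p = 0.962). Gldc ranged from 24.5 to 34.9 CPM, with a median of 30.6, in knockouts and from 25.0 to 30.3 CPM, with a median of 26.8, in controls, again with overlap and with the opposite sign (0.16 ± 0.08 SE, adjusted p = 0.944). Prkg1, the cGMP-dependent protein kinase I gene, had the smallest p (0.19 ± 0.06 SE, adjusted p = 0.944).

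The differences between lines were tested directly in a single fit, in which each effect is relative to the controls of its own line and no controls are shared. The Tmem252 effect was lower in the Dmrt2 line than in the Hmx3 Hmx2 line by a log2 difference of -1.35 ± 0.24 SE (adjusted p = 0.0271, the only one of the 49 genes called beside 0.154% of 22101). It was also lower in the triple than in the Hmx3 Hmx2 line (-1.51 ± 0.24 SE, adjusted p = 0.00610), as was that of Gldc (-0.81 ± 0.15 SE, adjusted p = 0.00727), 2 of 49 called beside 0.968%. The first difference was not called without any one of 10 libraries (adjusted p 0.0501 to 0.121): Dmrt2 knockout 1, 2 or 3, Dmrt2 control 3, Hmx3 Hmx2 knockout 3 or 4, and Hmx3 Hmx2 control 1, 3, 5 or 6. Those of the triple line kept their call without any one library. Between the triple and Dmrt2 lines 0 of the 49 genes were called (edgeR, beside 0.394%, and 0 by DESeq2), and 5 had an unadjusted p under 0.05, beside 11.4%. There Tmem252 differed by -0.15 ± 0.28 SE (adjusted p = 0.887) and Gldc by -0.31 ± 0.17 SE (adjusted p = 0.494). For Gldc the Dmrt2 and Hmx3 Hmx2 effects differed by -0.50 ± 0.15 SE, which the test did not call (adjusted p = 0.298).

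Across the 49 genes, the log2 fold changes of the Dmrt2 and triple comparisons correlated with Pearson r = 0.78 and Spearman rho = 0.53 (n = 49 genes of 1 chromosome, given as a description since genes are not independent). Without Tmem252 Pearson r was 0.51, and without Tmem252 and Gldc 0.42 (rho 0.47). Between the Hmx3 Hmx2 and triple comparisons, the first of which did not target chromosome 19, the same 49 genes had r = -0.02 and rho = 0.33, and without Tmem252 and Gldc r = 0.25 and rho = 0.46. In the Dmrt2 and triple comparisons the sign was the same in 33 of 49 genes (67.3%). It was the same in 59.3% of all 15029 genes of at least 1 CPM, whose r was 0.10 and rho 0.25. In the Hmx3 Hmx2 and triple comparisons it was the same in 26 of the 49 (53.1%), beside 53.9% of all genes of at least 1 CPM. Between the Hmx3 Hmx2 and triple comparisons the 119 genes of chromosome 7 had r = 0.11 and rho = -0.01, with the same sign in 58 (48.7%) beside 53.9% of all genes of at least 1 CPM.

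**Figure D3:**
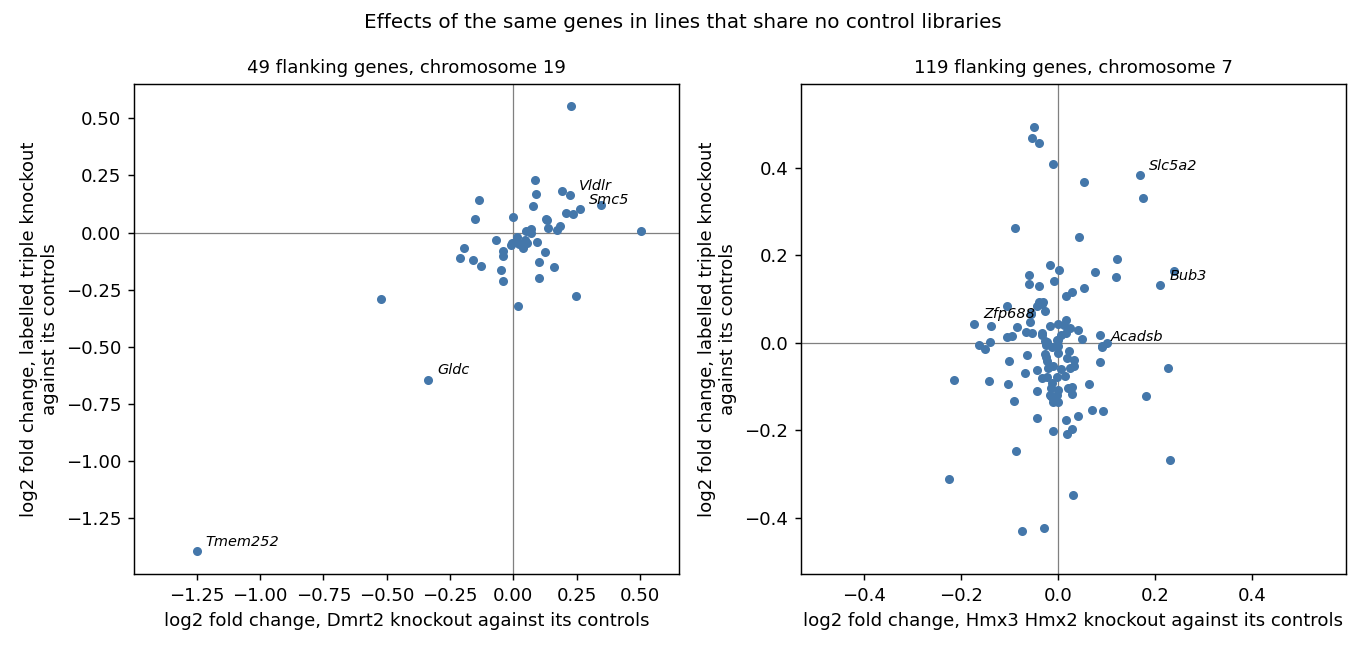
Log2 fold change of each flanking gene in the triple comparison (vertical) against the single-locus comparison of the same locus (horizontal), 49 genes of chromosome 19 at left and 119 of chromosome 7 at right, with different axis ranges. Tmem252 and Gldc lie apart at lower left (-1.25 and -1.40, and -0.34 and -0.65), while on chromosome 7 Bub3 stands at 0.21 and 0.13 within a round cloud.

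Of the 119 genes on chromosome 7, the one next to Hmx2 rose in the Hmx3 Hmx2 knockouts. Bub3 (131161951 to 131173624) begins 2.21 kb beyond the end of Hmx2, on the same strand. In replicates 1 to 3, counted in one table, it stood at 111, 110.3 and 109.7 CPM in knockouts and 95.2, 95.3 and 93.6 CPM in controls. In replicates 4 to 6, counted in another, it stood at 133, 135 and 128 CPM in knockouts and 111, 117 and 116.5 CPM in controls. Every knockout lay above every control of its own table, though the lower knockouts overlap the higher controls when the tables are joined, since levels differed between tables. The rise was 1.16-fold, from 105 ± 11.2 to 121 ± 12.1 CPM over both tables (SD, n = 6 and 6; log2 fold change 0.21 ± 0.03 SE with the table as a term, edgeR adjusted p = 0.00176). It was the only one of the 119 genes called, in a comparison with 4 calls among 19050 genes (0.021%), 1 of them higher (0.00525%), and the only one whose knockouts lay above all controls in both tables, which 0.173% of all tested genes did. The 2 tables gave 0.23 ± 0.04 and 0.20 ± 0.04 (SE), neither called alone (adjusted p = 0.820 and 0.395), and without the table term the call ended (adjusted p = 0.9995). Rcl1, a ribosomal RNA processing gene of the chromosome 19 window, was the only flanking gene whose knockouts lay below all controls in both tables (-0.10 ± 0.04 SE, adjusted p = 0.944), which 0.325% of all tested genes did.

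Of 9 mitotic checkpoint genes looked up Bub3 alone was called. The other 8 had log2 fold changes between -0.04 (Mad2l1) and 0.10 (Knl1) in the Hmx3 Hmx2 comparison, with Bub1 at -0.01, Bub1b at 0.01 and Ttk at 0.02. Mki67, a marker of cycling cells that lies 4.13 Mb from the locus, ranged from 254 to 394 CPM, with a median of 328, in knockouts and from 245 to 345 CPM, with a median of 322, in controls (0.12 ± 0.12 SE, adjusted p = 0.962). In the libraries labelled triple knockout Bub3 stood at 101, 111 and 102 CPM, and in their controls at 86.9, 98.0 and 101 CPM. These groups overlapped by their nearest values, and the change was on the same side but not called (0.13 ± 0.06 SE, adjusted p = 0.297). It did not differ from that of the Hmx3 Hmx2 line beyond its error (difference -0.09 ± 0.06 SE, adjusted p = 0.556). In the Dmrt2 line, where chromosome 7 was not targeted, Bub3 stood at 99.0, 97.4 and 94.4 against 95.5, 96.8 and 92.9 CPM with overlap (0.03 ± 0.05 SE, adjusted p = 0.876). The difference between the Dmrt2 and Hmx3 Hmx2 effects, -0.19 ± 0.06 SE, was not called (adjusted p = 0.332), so the rise is not shown to be particular to the Hmx3 Hmx2 line.

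**Figure D4:**
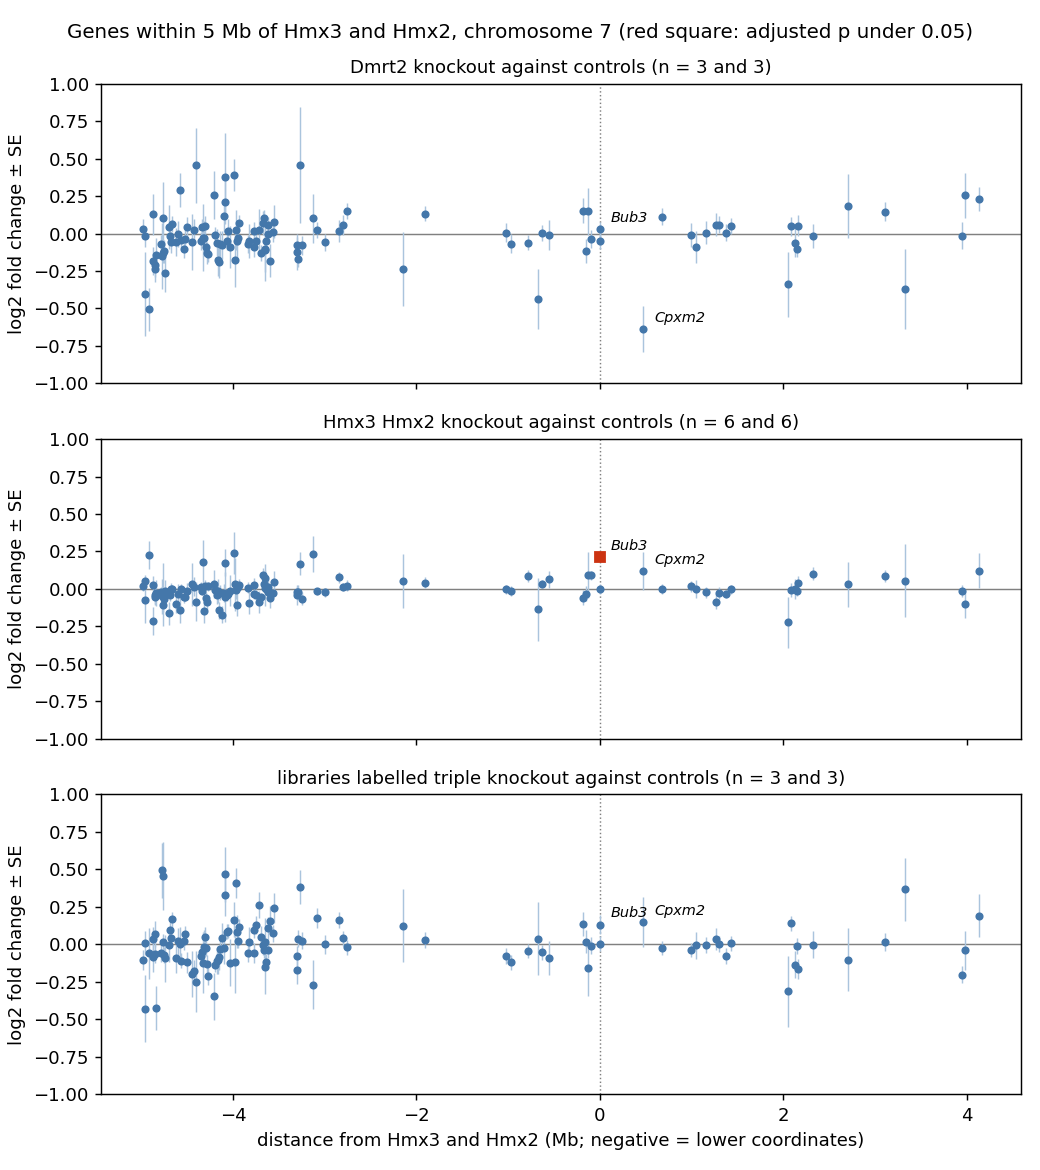
Log2 fold change ± SE of the 119 genes within 5 Mb of the Hmx3 Hmx2 block against their distance from it (negative for lower coordinates), one panel for each line, red squares for an adjusted p under 0.05. Bub3, at 2.21 kb, is the only red square (0.21 in the Hmx3 Hmx2 panel), Cpxm2 stands at -0.64 in the Dmrt2 panel, and most genes lie in the dense stretch beyond -2.5 Mb.

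On the other side of the block the nearest gene, Acadsb, a short branched-chain acyl-CoA dehydrogenase, lies 93.9 kb away. It ranged from 74.6 to 88.7 CPM, with a median of 80.8, in Hmx3 Hmx2 knockouts and from 70.2 to 81.9 CPM, with a median of 77.7, in controls, with overlap (0.09 ± 0.03 SE, adjusted p = 0.944). Ikzf5, an Ikaros family zinc finger gene (0.09 ± 0.16 SE), Pstk, a kinase of selenocysteine tRNA (-0.03 ± 0.05 SE), and the uncharacterised 2310057M21Rik (-0.06 ± 0.05 SE) lie within 500 kb on that side and were not called in any line. Fgfr2, a receptor needed for branching of the ureteric bud, spans the block on paper only. Of its 47 annotated exons 2, with 314 bases, lie 2.82 Mb beyond the other 45, whose last base is 1.28 Mb from Hmx3. It stood at 208 ± 9.58 against 208 ± 5.60 CPM in the Hmx3 Hmx2 line and 198 ± 3.97 against 197 ± 5.33 CPM in the triple line (0.00 ± 0.03 SE and 0.01 ± 0.05 SE). Over the 119 genes 11 had an unadjusted p under 0.05 in the Hmx3 Hmx2 comparison, 9.24% beside 4.93% of all genes tested. Of these 6 were higher and 5 lower, beside 2.2% and 2.73%, and 3 of the 14 genes within 1 Mb did, all higher (Bub3, Acadsb and Tacc2, a centrosomal coiled-coil gene, at 0.09 ± 0.04 SE). The 14 include Fgfr2, which was placed by its annotated span and not by its 45 exons. Their median log2 fold change was 0.03, against -0.02 for the rest of chromosome 7. Zfp688, a zinc finger gene 4.12 Mb away, had the next smallest p (-0.17 ± 0.06 SE, adjusted p = 0.944).

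The triple comparison called 0 of the 119 genes (edgeR), while 22 had an unadjusted p under 0.05, a share of 18.5% beside 17.9%, and DESeq2 called 4 (Phkg2, Clrn3, Sephs2 and Slc5a2) where it called 5.93% of the genes it tested. At a mean of at least 1 CPM the edgeR share under 0.05 was 20.8% of all tested genes and 19.9% of the rest of chromosome 7. Phkg2, a catalytic subunit of phosphorylase kinase, stood at 15.7, 16.5 and 19.9 CPM in the libraries labelled triple knockout and 14.1, 12.7 and 12.5 CPM in controls, without overlap (0.41 ± 0.10 SE, edgeR adjusted p = 0.0794). It shares 21.9% of its exon bases with Ccdc189. Slc5a2, the sodium-glucose cotransporter of the proximal tubule, stood at 39.8, 35.2 and 46.8 against 29.1, 35.1 and 29.3 CPM (0.38 ± 0.11 SE, adjusted p = 0.161), its lowest knockout just above its highest control. Sephs2, which makes selenophosphate, stood lower (-0.21 ± 0.06 SE, adjusted p = 0.121), as did Clrn3, a clarin gene (-0.20 ± 0.05 SE, 0.107), and Taok2, a MAP kinase kinase kinase, higher (0.17 ± 0.05 SE, 0.134). All of these lie 3.27 to 4.66 Mb from the block, and within 1 Mb of it 1 of 14 genes had an unadjusted p under 0.05 (Nsmce4a, an SMC5/6 complex subunit gene, -0.12 ± 0.05 SE, adjusted p = 0.258).

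The Dmrt2 comparison, which did not target chromosome 7, also called 0 of the 119 genes (edgeR), with 14 at an unadjusted p under 0.05 (11.8% beside 12.3%). DESeq2 called 1, Cpxm2, where it called 2.43% of the genes it tested. Hmx2 and Hmx3, which are not among the 119, were higher in this comparison (CPM of library totals). Hmx2 stood at 13.7 to 14.6 CPM in Dmrt2 knockouts and 3.56 to 4.99 CPM in controls. Hmx3 stood at 0.887 to 1.07 against 0.0513 to 0.394 CPM. Cpxm2, a carboxypeptidase-like gene 475 kb from the block, stood at 10.6, 8.37 and 9.01 CPM in knockouts and 12.3, 12.9 and 18.3 CPM in controls, without overlap (-0.64 ± 0.16 SE, edgeR adjusted p = 0.125, DESeq2 adjusted p = 0.00197). In the 2 lines in which the Hmx3 Hmx2 block was targeted its log2 fold change stood at 0.12 and 0.15 (adjusted p = 0.965 and 0.679). Nupr1, a stress-induced nuclear gene, stood at 4.45, 3.89 and 5.09 against 6.57, 5.59 and 6.93 CPM (-0.50 ± 0.14 SE, adjusted p = 0.168), and Srcap, an ATPase that exchanges histone variants, at 8.97, 10.3 and 8.77 against 7.14, 6.99 and 7.26 CPM (0.39 ± 0.11 SE, adjusted p = 0.161). Srcap shares 65.0% of its exon bases with other genes, so its levels rest on the remaining bases. The tests of differences between lines called 0 of the 119 genes with edgeR. At an unadjusted p under 0.05 there were 18 for triple against Hmx3 Hmx2 (beside 13.3% of all genes), 15 for triple against Dmrt2 (11.4%) and 12 for Dmrt2 against Hmx3 Hmx2 (7.67%), and DESeq2 called 2 genes in the first (Sephs2 and Taok2), beside 3.48% of all genes, and 1 in the last (Nupr1), beside 0.548%.

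The flanking genes were also read by function. With 1 call in each line, and 0.444%, 0.021% and 1.03% of all genes called, 0 calls in a list of this size is near the background. Where a list holds 1 call, it is that of a gene already described above. The lists were chosen with earlier results known, so such a call says nothing about the other genes listed. Of 14 transcription and chromatin genes of the 18 listed (among them Smarca2, Rfx3, Glis3, Klf9, Ikzf5, Setd1a and Maz) 0 were called in any line, with medians of 0.05, 0.00 and 0.07 in the Dmrt2, Hmx3 Hmx2 and triple comparisons, where the medians of all genes tested were 0.00, -0.01 and 0.00. The listed genes Dmrt1, Dmrt3, Foxd4 and Foxi2 lie in the same windows but reached at most 0.115 CPM in any library. Of 8 chromosome segregation and repair genes Bub3 alone was called, in the Hmx3 Hmx2 line, and the medians in the same order were 0.04, 0.02 and 0.02. Of 13 metabolic enzyme genes of the 16 listed Gldc alone was called, in the triple line (medians -0.07, 0.02 and -0.09). In that line the log2 fold changes of the other 12 all lay below 0, from -0.01 (Lhpp, a phosphatase gene) to -0.21 (Sephs2), with the ornithine aminotransferase gene Oat at -0.04, beside 50.2% of all tested genes, and 43.6% of those of at least 1 CPM, above 0. Several of these values are near 0 and genes are not independent, so the shared sign is a description and was not tested. Of 13 signalling genes, among them Fgfr2, Mapk3, Jak2, the Wnt inhibitor gene Dkk1 and the alarmin gene Il33, 0 were called in any line (medians 0.05, 0.04 and -0.05), and Jak2 stood at 0.04, 0.04 and -0.07 and Dkk1 at 0.10, 0.03 and -0.20 in the 3 lines. Of 7 genes of the 10 listed under transport, channels and membrane receptors Tmem252 alone was called, in the Dmrt2 line (medians 0.22, 0.07 and -0.04). It stands on that list as a transmembrane protein, and no transport or receptor function is claimed for it here.

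Across genes, Spearman's rho between distance from the targeted locus and the absolute log2 fold change was -0.02, 0.03 and 0.11 on chromosome 19 (n = 49) and 0.13, 0.07 and 0.14 on chromosome 7 (n = 119), in the Dmrt2, Hmx3 Hmx2 and triple comparisons. On chromosome 19 in the Dmrt2 comparison the median absolute log2 fold change was 0.10 for the 6 genes within 1 Mb, 0.18 for the 14 at 1 to 2.5 Mb and 0.09 for the 29 beyond. For the rest of chromosome 19 it was 0.09. On chromosome 7 in the Hmx3 Hmx2 comparison it was 0.06 for the 14 genes within 1 Mb, 0.03 for the 15 at 1 to 2.5 Mb and 0.04 for the 90 beyond, and 0.05 for the rest of chromosome 7. In these chromosome 7 values Fgfr2 was placed by its annotated span, which crosses the block.

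The control groups of the 3 lines were not alike for every flanking gene. Line and table cannot be told apart, so these levels are a description. Scaled over all 24 libraries, the highest line mean of controls was over 1.5 times the lowest for 5 of 49 genes on chromosome 19 and 10 of 119 on chromosome 7. Rfx3 stood at 14.7, 22.6 and 26.3 CPM in the controls of the Dmrt2, Hmx3 Hmx2 and triple lines, Srcap at 7.09, 11.2 and 14.6, and Slc5a2 at 18.6, 32.4 and 31.1. The ratio was largest for the low gene Gm9493 (3.40). Tmem252 stood at 96.2, 68.7 and 98.8, Gldc at 23.8, 27.4 and 32.1, and Bub3 at 94.5, 105 and 95.2 CPM. Exon bases shared with another gene, whose reads were not assigned, occur in 12 of the 49 and 60 of the 119 genes, but not in Tmem252, Gldc or Bub3. The shared part is large in some genes named here: 84.5% in Ikzf5, 65.0% in Srcap, 58.8% in Pstk, 52.3% in Setd1a and 36.4% in Sephs2. The levels of such genes are not those of the whole gene.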

How the data were processed

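Poly(A) RNA of whole kidneys was sequenced with reads of 150 bases. The submitters' processing notes name fastp 0.20.1, STAR 2.7.0e, featureCounts 2.0.1 and the build mm39. The authors deposited 4 tables of raw read counts per gene. Per the file headers, exons of GENCODE vM29 were counted by gene name with featureCounts 2.0.3, without strand, with the reads of a pair counted singly, and without options for reads that map to several places or genes. From these counts 54393 genes were read in the 24 titled libraries, and 2 columns that match no label were not used.

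Each line was fitted with edgeR 4.0.16 (R 4.3.3; TMM scaling, filterByExpr with a minimum count of 10, robust quasi-likelihood F test), with the deposited table as a term in the Hmx3 Hmx2 line. Differences between lines came from 1 model over all 24 libraries, here called the single fit, again with a table term. All adjusted p-values are Benjamini-Hochberg values of these edgeR tests over all genes tested, unless DESeq2 1.42.0 is named, and called means under 0.05. Log2 fold changes are knockout over control, and each SE was derived from the fold change and its F statistic. The scripts were tested on simulated data.

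The flanking genes, the lists and the markers were chosen with earlier results of these data known. Genes were named if they lay within 500 kb of a targeted locus, were called, were among the 6 with the smallest p for a comparison and locus, were highest per exon length, stood on a list or lay nearest a limit. Apba1 was named after its values were seen. Promoter sequences were matched by symbol and their coordinates are of another build than the counts. Alternatives were DESeq2, no scaling, no filter, halved counts, a Y-linked covariate, a replicate block, no table term, each table alone, the single fit, other limits of distance or level, and each library left out.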

Additional observations from a re-analysis of the deposited data

Results flagged for a closer look

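Pstk in the Hmx3 Hmx2 controls was set apart by a single library. Control replicate 1 had 18.4 CPM, while the other 5 controls lay between 15.6 and 16.1 CPM, a gap of 0.812 of the group's whole range. Of 24 groups of 6 looked at in this way 1 was marked, and chance marks about 1 in 20. Effects that differed between lines by a direct test were those of Tmem252 and Gldc. The Tmem252 effect was lower in the triple than in the Hmx3 Hmx2 line by -1.51 ± 0.24 (SE, edgeR adjusted p = 0.0061) and lower in the Dmrt2 than in the Hmx3 Hmx2 line by -1.35 ± 0.24 (adjusted p = 0.0271). The Gldc effect was lower in the triple than in the Hmx3 Hmx2 line by -0.81 ± 0.15 (adjusted p = 0.00727).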

How the results depend on the processing

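No log2 fold change or difference examined changed sign while called, and among the values of single genes under all alternatives 28 came to pass the threshold and 18 ceased to. On chromosome 19 the single call of the Dmrt2 comparison became 4 without a filter (Gldc, Smc5, Tmem252 and Vldlr), 2 in the single fit (Smc5 and Tmem252), 0 with the Y-linked covariate, and 1 to 2 with each library left out (Trpm3 joined without control 1). The single call of the triple comparison became 2 with DESeq2 (Gldc and Tmem252), 2 without a filter (Gldc and Ptar1), 3 in the single fit (Gldc, Tmem252 and Zfand5), 0 within 2.5 Mb, where Gldc does not lie, and 0 to 2 with each library left out (0 without knockout 2 or 3, and 2 without control 3). For the difference between the Dmrt2 and Hmx3 Hmx2 effects it was 0 to 1. On chromosome 7 the absence of calls in the Dmrt2 comparison became 1 with DESeq2, 4 without a filter, and 0 to 1 with each library left out (Aldoa without control 1). In the triple comparison it became 4 with DESeq2, 6 without a filter, 3 in the single fit, and 0 to 1 (Clrn3 without control 3). In the Hmx3 Hmx2 comparison the single call, Bub3, became 0 without the table term and 0 in each table alone. For triple against Hmx3 Hmx2 the count of 0 became 2 with DESeq2, 1 with halved counts (Sephs2), and 0 to 2 with each library left out. For Dmrt2 against Hmx3 Hmx2 it became 1 with DESeq2. Calls over all genes moved too: without a filter from 88 of 19807 to 676 of 32184 (Dmrt2) and from 222 of 21537 to 1510 of 33852 (triple), in the single fit to 132 and 573 of 22101, and with DESeq2 to 417 of 17191 and 1034 of 17423. The causes were not tested, except that a single table has fewer libraries. Low genes are limited by depth, since 3 reads are worth up to 0.0574 CPM.

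Replicate numbers are shared between groups, but the labels do not say that they mark a litter or batch. Deviations of same-numbered libraries correlated by 0.080 to 0.131 in the Dmrt2 line (3 of 3 knockouts best with their own number), -0.024 to 0.278 in the Hmx3 Hmx2 line (3 of 6) and -0.308 to -0.153 in the triple line (0 of 3), so the numbers were not taken as pairs. With a replicate block, calls over all genes were 80 in place of 88, 5 in place of 4 and 51 in place of 222. Chromosome 19 calls fell to 0 in the triple comparison (Gldc adjusted p = 0.0854) and to 0 for the Dmrt2 against Hmx3 Hmx2 difference (Tmem252, 0.100), and chromosome 7 calls for triple against Hmx3 Hmx2 became 1 (Sephs2).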
